A study of Gallus gallus with 4 samples.

Results

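Chicken genes for 34 kinases and 17 phosphatases were compared between immortal DF-1 cells and primary chicken embryo fibroblasts (CEF). They were taken from the study's pathway list of 902 entries, in which each known gene has a molecular type, and were joined by sequence accession to the array table. The list held 59 accessions typed as kinase or phosphatase. Of these, 7 accessions of 6 genes (PLK1, SRC, EPHA3, FGFR2, ROR1 and TRIB2) were not taken in, which left 51 genes and 52 probes of the 42034 gene probes on the array. Each accession met exactly 1 probe, and 2 probes carried the symbol PFKM, which was counted as 1 gene. The pathway list was itself selected on the difference between these cells on these arrays, so the member values are given as a description, without a test.

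DF-1 is a spontaneously immortalized line of chicken embryo fibroblasts in long-term passage, from embryos of the endogenous virus negative Line 0. Primary CEF were early-passage cells dissociated from whole specific-pathogen free embryos, so they were a mixture of embryonic cells, did not come from the embryos that gave rise to DF-1, and differed from it in chicken line as well as in immortality and time in culture. Neither was treated, and both were grown in the same medium. RNA of both was hybridized together on each of 4 Agilent arrays, with primary CEF in Cy3 and DF-1 in Cy5 on every array, so that a dye effect on a probe and a difference between the cells cannot be told apart. The labels and the study's methods give 4 biological replicates, while the design text mentions 1 sample of each, so the SD over arrays (n = 4 for every mean below) and the p values measure only the spread between these hybridizations, which may be technical.

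Protein kinases transfer a phosphate from ATP to serine, threonine or tyrosine of other proteins, and protein phosphatases take it off again. Metabolic kinases and phosphatases do the same with sugars, lipids, nucleotides and cofactors. In fibroblasts, such enzymes carry signals from growth factors and cell contacts to the cytoskeleton and the cell cycle. The molecular types of the pathway list also take in proteins with no such activity: the ligand EFNA5, the co-receptor NRP2, and regulatory subunits such as PHKB and the PP1 and PP2A subunits.

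All values are log2 ratios with DF-1 as the numerator and primary CEF as the denominator, so that 1 stands for a 2 fold higher and -1 for a 2 fold lower signal in DF-1. A probe was called where its mean over the 4 arrays was over 1 or under -1 with an unadjusted p under 0.05 in limma. These are the thresholds of the study's methods, applied here to the deposited ratios. Among all gene probes, 6.12% were called higher and 6.06% lower. Among the 52 kinase and phosphatase probes, 25 were called higher and 19 lower, and nothing is read from these counts because the same contrast chose the genes. The other 8 probes had means from -0.98 (EPHB6) to -0.86 (PTPLA). The study itself counted these genes as differentially expressed, and why they missed the limit here was not tested. All 52 had the same sign on the 4 arrays. Of the 35 kinase probes, 18 were called higher, 12 lower and 5 not at all. Their median log2 ratio of 1.18 is that of NRP2, the lowest of 18 positive means, beside 17 negative ones, and with no mean between -0.86 and 1.16 it would change sign with a single probe. Of the 17 phosphatases, 7 were called higher, 7 lower and 3 not at all, with a median of -0.87. The median over all gene probes was 0.22.

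That last value shows that the ratios of whole arrays were not centered at 0. The gene probe medians were -0.04, 0.20, 0.21 and 0.47 on arrays 1 to 4, and those of the 153 negative control spots were 0.02, 0.17, 0.38 and 0.53. When all arrays were brought to a gene probe median of 0, every member mean fell by 0.21, and 4.16% of all gene probes were called higher and 7.76% lower. On that scale 23 kinase and phosphatase probes were called higher and 27 lower, so the share of higher probes among the called went from 56.8% to 46.0%. For kinases the split became 17 higher and 17 lower, with a median of 0.97, and for phosphatases 6 higher and 10 lower, with a median of -1.08. No member changed sign.

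The cell types that primary CEF could hold were looked at through marker lists and the probes with a gene symbol, nearly all of which the study had named because they differed on these arrays. Of 18 fibroblast markers 8 had such probes, and 9 of these 10 probes were called lower in DF-1, among them those of FBLN1, DCN and POSTN, while TWIST2 was higher. Also lower were 3 of 11 endothelial markers (CLDN5, EGFL7 and SOX18), 2 of 12 of cartilage and bone (COL11A1 and SOX9), 2 of 13 of neural cells (MAP2 and SOX10) and 1 of 15 of skeletal muscle (MYOD1), and the other genes of these lists had no symbol. Of 19 leukocyte markers CD3E alone had one and was higher, and of 11 epithelial markers none had. Ratios alone do not show whether a marker was present in either cell. In such bulk RNA, fewer cells of a type and less RNA per cell cannot be told apart, and the part of these differences in the kinase and phosphatase values was not tested.

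**Figure D1:**
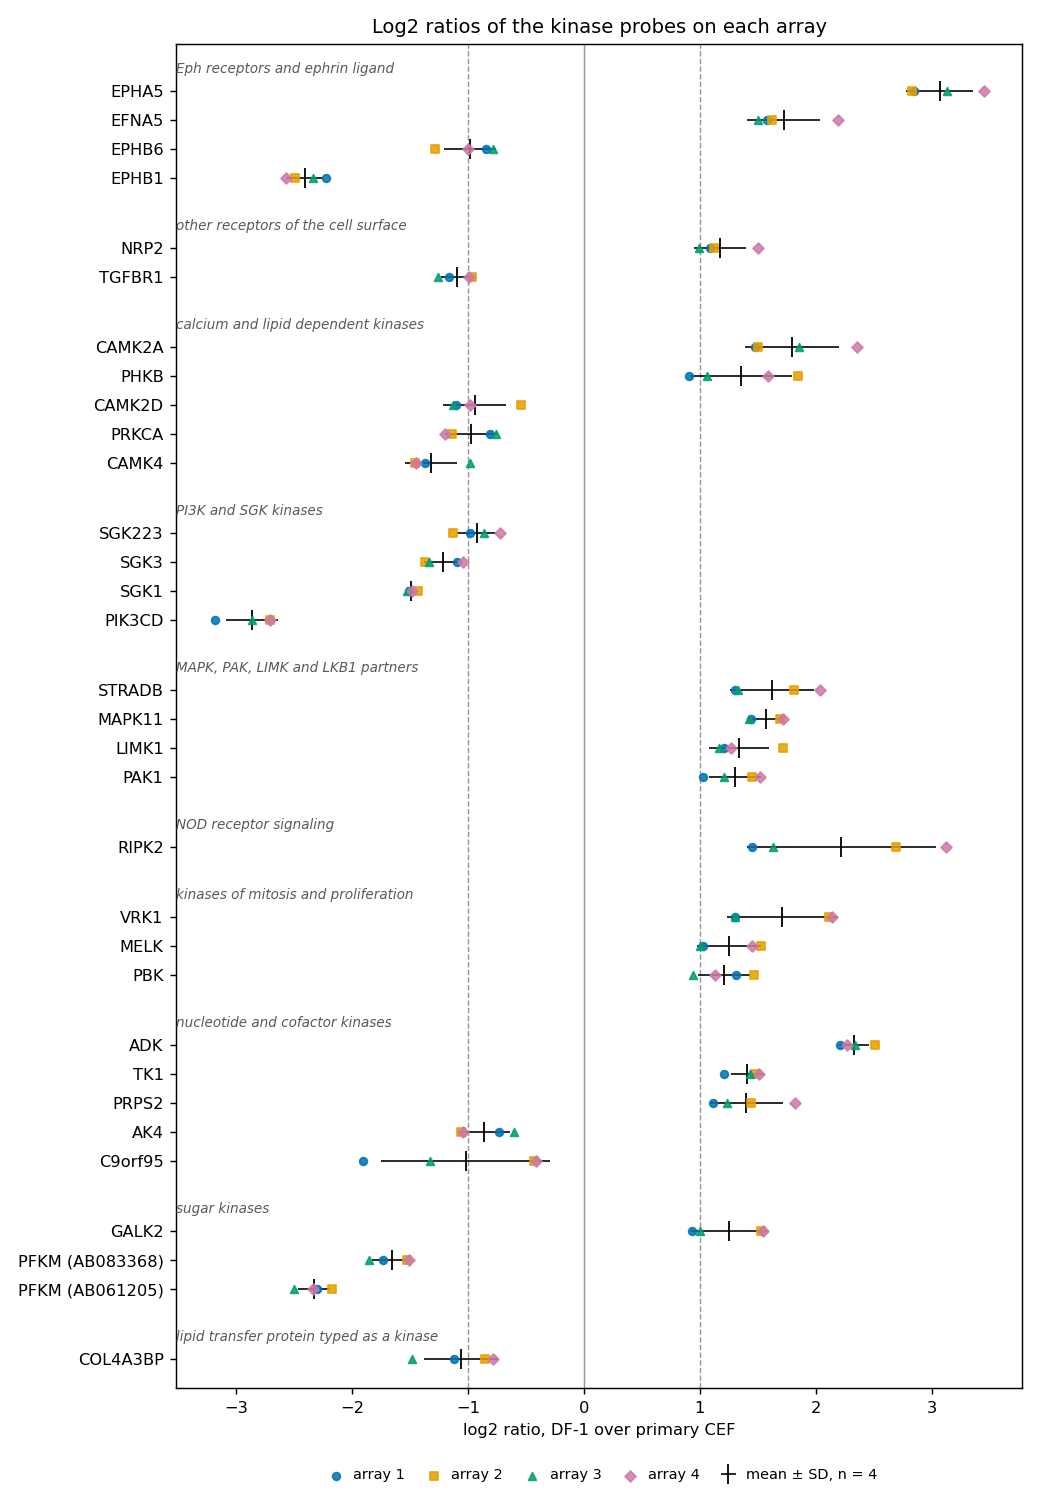
Log2 ratio of DF-1 over primary CEF for 32 of the 35 kinase probes, grouped by role. Colored symbols are the 4 arrays, the black bar and line the mean ± SD, and the dashed lines the 2 fold limits of 1 and -1. The 4 probes of MAPK11, PAK1, LIMK1 and STRADB and the 3 of VRK1, MELK and PBK lie to the right of 0. The 4 grouped as PI3K and SGK kinases, among them SGK223, which is not of the SGK family, lie to the left. RIPK2 has the widest spread (SD 0.81).

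Receptors of the Eph family and an ephrin ligand had ratios on both sides of 0. Eph receptors are tyrosine kinases of the cell surface that bind ephrins on neighboring cells and steer cell repulsion and adhesion. EPHA5, a receptor for A-type ephrins, had log2 ratios of 2.85, 2.84, 3.14 and 3.45 on arrays 1 to 4, with a mean of 3.07 ± 0.29, or 8.39 fold. Its values were all far above the 2 fold limit, with the highest on array 4. EFNA5 (ephrin-A5), a ligand that EPHA5 can bind and which has no kinase domain, was also higher, at 1.58, 1.62, 1.50 and 2.19 and a mean of 1.72 ± 0.32. EPHB1, a receptor for B-type ephrins, lay on the other side at -2.22, -2.50, -2.34 and -2.57, a mean of -2.41 ± 0.16 and 5.3 fold lower. Thus EPHA5 and EPHB1 differed in opposite directions with no array near 0 for either. EPHB6, whose kinase domain lacks catalytic activity, had -0.85, -1.29, -0.78 and -1.01, and its mean of -0.98 ± 0.22 was the nearest to the limit among the probes that missed it. Without array 1 or array 3 its mean was -1.03 or -1.05 and the probe was called.

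Of the other receptors, 1 was higher and 1 lower. TGFBR1, the type I receptor kinase for TGF-beta, a growth factor that drives matrix production in fibroblasts, had a mean of -1.10 ± 0.14. NRP2, a co-receptor for semaphorins and VEGF, had 1.09, 1.12, 0.99 and 1.51 and a mean of 1.18 ± 0.23, the lowest of the higher kinases. It was above 1 on 3 of the 4 arrays. After the shift of the arrays its mean was 0.97, so its call depended on the level of the arrays.

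Intracellular signaling kinases were grouped by role. The same contrast chose all of them, so a shared direction within a group is not read as a result about a pathway. PIK3CD, the catalytic p110 delta subunit of PI3K, which is best known from leukocytes, had log2 ratios of -3.19, -2.71, -2.87 and -2.71. Its mean was -2.87 ± 0.23, the lowest of all kinases and 7.3 fold lower in DF-1. SGK1, a serum and glucocorticoid inducible kinase that is activated downstream of PI3K, had -1.51, -1.43, -1.53 and -1.49. This was the narrowest spread of all members as deposited, with a mean of -1.49 ± 0.04. After the shift the values of SGK1 were wider apart, at -1.47, -1.64, -1.74 and -1.96. Its relative SGK3 had -1.21 ± 0.16. SGK223, a pseudokinase that shares only the letters of its name with the SGK family, had -0.93 ± 0.17 and was not called. After the shift it was called lower, while PIK3CD, SGK1 and SGK3 were called lower on both scales.

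The 4 genes of MAP kinase, cytoskeletal and LKB1 signaling were all called higher, on both scales. Among all gene probes the share called higher was 6.12% as deposited and 4.16% after the shift. These 4 genes do not form a single pathway and were chosen on this contrast, so nothing is read from their shared direction. MAPK11 (p38 beta), a stress-activated MAP kinase, had 1.44, 1.70, 1.42 and 1.72 and a mean of 1.57 ± 0.16. STRADB, a pseudokinase that binds and helps to activate LKB1, had 1.31, 1.81, 1.33 and 2.04 and 1.62 ± 0.36. PAK1, a kinase activated by Rac and Cdc42, had 1.03, 1.45, 1.21 and 1.52 and 1.30 ± 0.22. LIMK1, which PAK1 phosphorylates and which in turn phosphorylates the actin-severing protein cofilin, had 1.21, 1.72, 1.16 and 1.27 and 1.34 ± 0.26. As deposited, every array value of these genes was over 1, and their means ran from 1.30 to 1.62. After the shift LIMK1 had 0.95 and 0.80 on arrays 3 and 4, and PAK1 had 0.99 on array 3.

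Kinases that depend on calcium or diacylglycerol were divided, even within the calmodulin-dependent kinase II genes. CAMK2A, the alpha subunit and best known from neurons, had 1.48, 1.50, 1.85 and 2.35 and a mean of 1.80 ± 0.41. CAMK2D, the delta subunit of the same enzyme, had -1.11, -0.55, -1.13 and -0.98 and a mean of -0.94 ± 0.27. It was not called, and array 2 alone was above -0.9. Without array 2 its mean was -1.08, and it was called. CAMK4, a calmodulin-dependent kinase of the nucleus, was lower at -1.32 ± 0.23. PRKCA, the diacylglycerol-dependent protein kinase C alpha, had -0.81, -1.14, -0.76 and -1.20 and a mean of -0.98 ± 0.22, just short of the limit, which it passed without array 1 (-1.03) or array 3 (-1.05). PHKB, a regulatory subunit of the kinase that activates glycogen phosphorylase, had 0.91, 1.85, 1.06 and 1.59 and a mean of 1.35 ± 0.44. As deposited, its values on arrays 2 and 4 lay clearly above those on arrays 1 and 3. After the shift they were 0.95, 1.65, 0.85 and 1.12, and mainly array 2 stood apart.

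RIPK2, a kinase that passes signals of the NOD receptors to NF-kappaB, had 1.45, 2.69, 1.63 and 3.12. As deposited, its mean of 2.22 ± 0.81 came with the widest spread of all members. Arrays 2 and 4 were over 1 log2 unit above arrays 1 and 3. No array was below 1.

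Of the leukocyte markers only CD3E had a symbol, with a mean of 1.77 ± 0.35 (SD), higher on all arrays. CD3E was thus higher and PIK3CD lower, and whether RNA of such cells took part was not tested.

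The 3 kinases tied to mitosis and proliferation were called higher on both scales. VRK1, a nuclear kinase that phosphorylates histone H3 and chromatin proteins, had 1.30, 2.11, 1.30 and 2.14 and a mean of 1.71 ± 0.48. MELK, a kinase abundant in dividing cells, had 1.03, 1.53, 1.00 and 1.45 and 1.25 ± 0.28. PBK, a MAPKK-like kinase active in mitosis, had 1.31, 1.47, 0.94 and 1.13 and 1.21 ± 0.23. All array values of these genes were positive, and the lowest of them as deposited, PBK on array 3, was 0.94. After the shift PBK had 1.36, 1.27, 0.73 and 0.66, and its mean of 1.002 barely passed the limit. The shifted mean of MELK was 1.04 and that of VRK1 1.50.

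Metabolic kinases covered the widest range of substrates. ADK, which turns adenosine into AMP, had log2 ratios of 2.21, 2.51, 2.34 and 2.27 and a mean of 2.33 ± 0.13, or 5.04 fold higher. As deposited, the arrays differed little, and after the shift its values ran from 2.31 on array 2 to 1.80 on array 4. TK1, the S-phase thymidine kinase of the salvage pathway, had 1.41 ± 0.14, and PRPS2, which makes the ribose donor PRPP for purine and pyrimidine synthesis, had 1.40 ± 0.31. AK4, an adenylate kinase of mitochondria, had -0.86 ± 0.22 and was called only after the shift (-1.07). C9orf95 (NMRK1), a nicotinamide riboside kinase of NAD synthesis, had -1.91, -0.43, -1.33 and -0.42. Its mean of -1.02 ± 0.73 was the nearest to the limit among the called lower probes, and only arrays 1 and 3 were under -1. Without array 1 or array 3 its mean as deposited was -0.73 or -0.92, and it was not called. After the shift C9orf95 had -1.87, -0.63, -1.54 and -0.89, with a mean of -1.23.

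The study's probe table, which was at hand in part, gave the sequence of the probe for 20 members, with a GC content of 35% to 55%. Those of sugar enzymes and of C9orf95 are printed here. The PFKM probes are shown because the same symbol stands for both, and those of C9orf95 and FBP1 because their calls as deposited turned on single arrays. The sequences are as designed, 60 bases each, 5′ to 3′.
PFKM (AB061205): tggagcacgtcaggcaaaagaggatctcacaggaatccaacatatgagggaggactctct
PFKM (AB083368): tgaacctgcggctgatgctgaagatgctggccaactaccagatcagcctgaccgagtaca
C9orf95 (BX931137): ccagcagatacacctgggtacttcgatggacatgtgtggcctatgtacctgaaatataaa
FBP1 (AJ276212): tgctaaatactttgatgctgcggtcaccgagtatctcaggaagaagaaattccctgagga

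PFKM encodes the muscle form of phosphofructokinase, which commits glucose to glycolysis. The probe of AB061205 had -2.30, -2.17, -2.50 and -2.34, with a mean of -2.33 ± 0.14, and that of AB083368 had -1.74, -1.53, -1.86 and -1.51, with a mean of -1.66 ± 0.17. Both were lower on each array, and on every array the first was the lower of the pair. The probes share no run of bases longer than 5. The probe table places the AB083368 probe on a chromosome where RefSeq (GRCg7b) lists PFKL, the liver form, and not PFKM, while for 14 of the 15 members with a chromosome in both sources the chromosomes were the same. Which phosphofructokinase the second probe measures is therefore not settled. FBP1, fructose-1,6-bisphosphatase, catalyzes the reverse step in gluconeogenesis and had -1.37, -0.97, -1.40 and -0.52. As deposited, its mean of -1.06 ± 0.41 came from values under -1 on arrays 1 and 3 only. Without array 1 or array 3 the mean was -0.96 or -0.95, and the probe was not called. After the shift FBP1 had -1.33, -1.17, -1.61 and -0.99, with a mean of -1.27. Thus the genes for both directions of this step had lower ratios, FBP1 by less than either PFKM probe. GALK2, a kinase of N-acetylgalactosamine, was higher at 0.93, 1.53, 1.00 and 1.55, with a mean of 1.25 ± 0.33.

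Another entry typed as a kinase has a different function. COL4A3BP (CERT), which carries ceramide from the endoplasmic reticulum to the Golgi, had -1.12, -0.85, -1.48 and -0.78 and a mean of -1.06 ± 0.32. As deposited, it was not called without array 3 (-0.92). After the shift its values were -1.08, -1.06, -1.70 and -1.25, with a mean of -1.27.

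**Figure D2:**
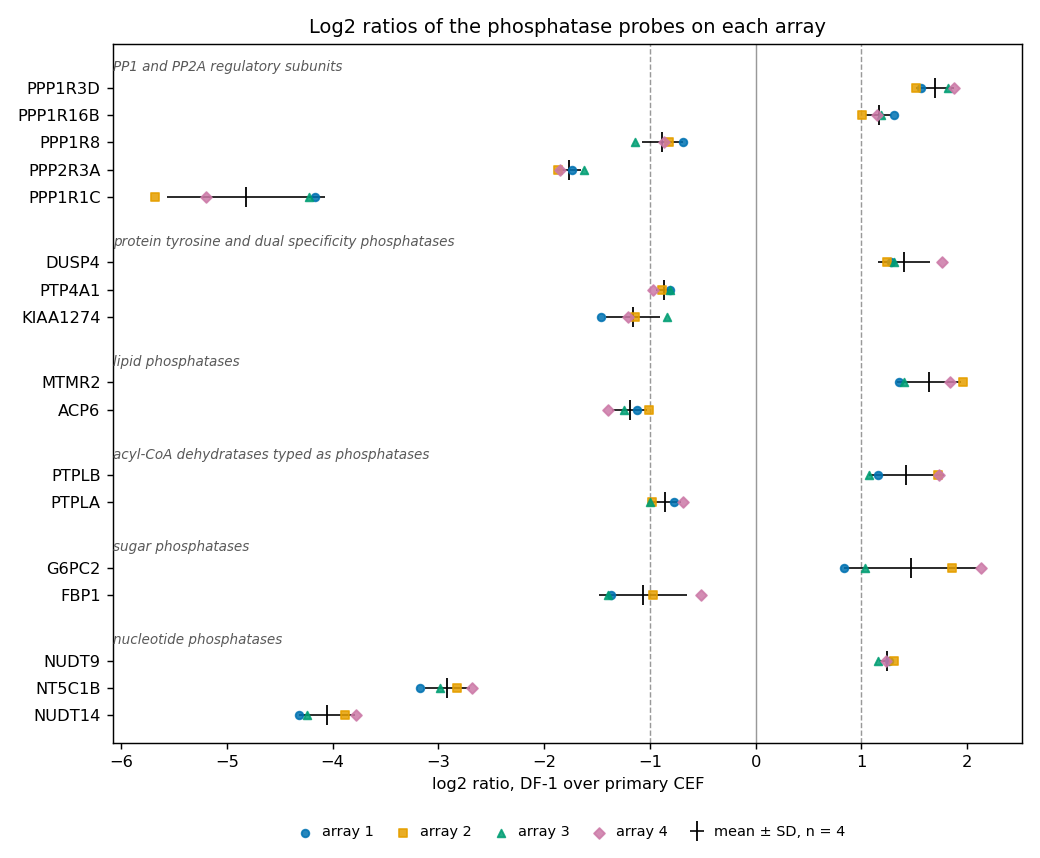
Log2 ratio of DF-1 over primary CEF for the 17 phosphatase probes, grouped by role, with the 4 arrays as colored symbols, the mean ± SD in black and dashed lines at the 2 fold limits. PPP1R1C (-4.82), NUDT14 (-4.06) and NT5C1B (-2.92) lie far to the left on all arrays, while no phosphatase has a mean above 1.70.

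Among phosphatases the lower side reached farther than the higher side. The lowest member of all was PPP1R1C, an inhibitor of protein phosphatase 1, with log2 ratios of -4.17, -5.69, -4.22 and -5.20. Its mean of -4.82 ± 0.75 was 28.2 fold lower in DF-1. Arrays 2 and 4 stood more than 0.9 log2 units under arrays 1 and 3, the reverse of the order in RIPK2, and every array was under -4.

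The other PP1 and PP2A subunits were divided. PPP1R3D, which targets PP1 to glycogen, had 1.56, 1.52, 1.82 and 1.88 and the highest phosphatase mean, 1.70 ± 0.18. PPP1R16B (TIMAP), a PP1 subunit known from endothelial cells, had 1.31, 1.01, 1.19 and 1.15. Its mean of 1.16 ± 0.12 was the lowest of all higher members, and after the shift it was 0.95 and not called. The 3 endothelial markers with a symbol were lower in DF-1, from -2.98 (CLDN5) to -1.16 (SOX18). Any link between them and PPP1R16B was not tested. PPP2R3A, a regulatory B″ subunit of PP2A, had -1.73, -1.87, -1.62 and -1.85 and -1.77 ± 0.12. A second probe that the study's probe table gives this symbol (BU220571) had -1.46, -1.19, -1.28 and -1.58, with a mean of -1.38 ± 0.17, in the same direction. PPP1R8 (NIPP1), a nuclear PP1 inhibitor, had -0.69, -0.82, -1.14 and -0.87 and -0.88 ± 0.19, and was called only after the shift (-1.09).

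Nucleotide phosphatases included the next lowest members. NUDT14, which hydrolyzes UDP-glucose, had -4.32, -3.88, -4.24 and -3.78, with a mean of -4.06 ± 0.27, or 16.6 fold lower. NT5C1B, a cytosolic nucleotidase that turns AMP into adenosine, had -3.18, -2.82, -2.98 and -2.69 and -2.92 ± 0.21, or 7.56 fold lower. Its reaction is opposite to that of ADK, the kinase with a mean of 2.33, and the values of these enzymes lay on opposite sides of 0 on all arrays. NUDT9, an ADP-ribose hydrolase, was higher at 1.26, 1.31, 1.16 and 1.23, with a mean of 1.24 ± 0.06. Its spread was narrow only as deposited, and after the shift its values were 1.30, 1.11, 0.95 and 0.76.

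Of the protein tyrosine and dual specificity phosphatases, 1 was called higher, 1 lower and 1 not at all. DUSP4, which removes phosphate from MAP kinases in the nucleus, had 1.29, 1.24, 1.31 and 1.77 and a mean of 1.40 ± 0.24. Array 4 stood apart only as deposited, and after the shift array 1 was the highest (1.33, against 1.30 on array 4). PTP4A1 (PRL-1), a prenylated tyrosine phosphatase linked to cell growth, had -0.81, -0.89, -0.81 and -0.97 and -0.87 ± 0.08, not called before the shift (-1.08 after it). KIAA1274 (PALD1, paladin), a phosphatase domain protein known from endothelium, had -1.46, -1.14, -0.84 and -1.20 and a mean of -1.16 ± 0.25. A link between KIAA1274 and the 3 endothelial markers, which were also lower, was not tested.

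Lipid enzymes and their relatives were divided as well. MTMR2, a myotubularin that dephosphorylates phosphoinositides of endosomes, had 1.35, 1.96, 1.41 and 1.84 and 1.64 ± 0.30. ACP6, a mitochondrial phosphatase of lysophosphatidic acid, had -1.12, -1.01, -1.24 and -1.39 and -1.19 ± 0.17. PTPLA and PTPLB (HACD1 and HACD2) resemble tyrosine phosphatases in sequence but are dehydratases that elongate very long-chain fatty acids. They differed in sign: PTPLB had 1.16, 1.72, 1.08 and 1.74 and 1.42 ± 0.35, while PTPLA had -0.86 ± 0.15, called only after the shift (-1.07). G6PC2, a glucose-6-phosphatase subunit known from pancreatic islets, had 0.84, 1.86, 1.04 and 2.13. Its mean of 1.47 ± 0.63 came with values over 1.8 on arrays 2 and 4 and about 1 or less on arrays 1 and 3.

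**Figure D3:**
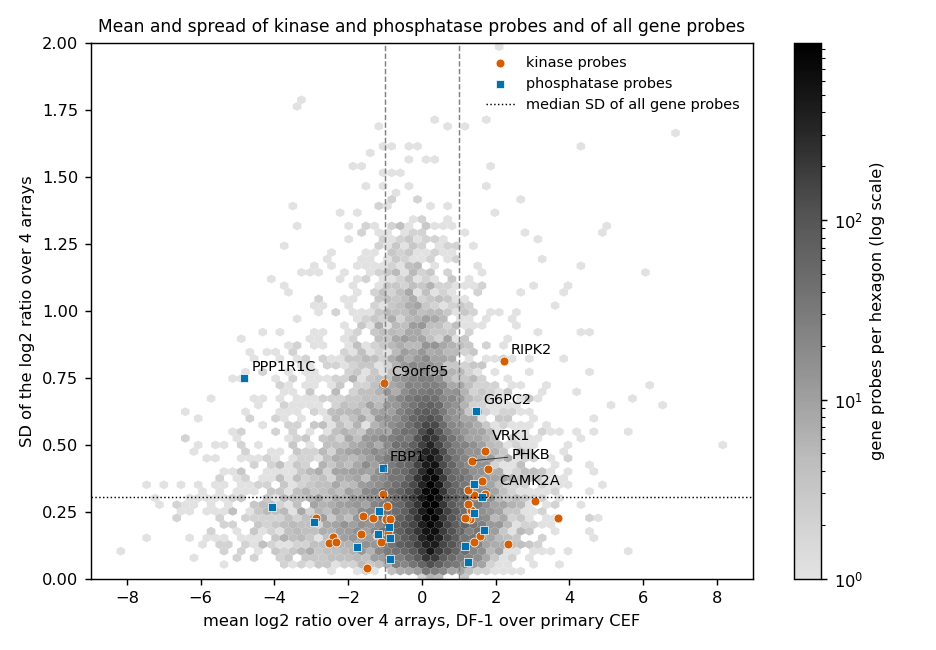
Mean log2 ratio (horizontal) against the SD over the 4 arrays (vertical) for kinase probes (orange circles) and phosphatase probes (blue squares), over hexagons shaded by the number of all gene probes on a log scale; 22 gene probes with an SD over 2 are outside the plot. Most members lie under the dotted median SD of all gene probes (0.30), and the 8 with an SD above 0.4 are named.

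The spread between arrays differed among the members. All SDs were taken on the deposited values, which carry the level differences between arrays. The SD of the 52 probes ran from 0.04 (SGK1) to 0.81 (RIPK2), with a median of 0.23. The median over all gene probes was 0.30, and 37 members were below and 15 above it. Such a comparison is limited because the selection on p favored probes with a small spread. As deposited, 19 of the 25 members with a positive mean were over 1 on every array, and 13 of the 27 with a negative mean were under -1. These counts depend on the array levels, so the sides are not compared. On arrays 1 to 4 the positive members had medians of 1.30, 1.62, 1.30 and 1.77, and after the shift 1.35, 1.42, 1.09 and 1.30. The negative members had -1.37, -1.29, -1.34 and -1.20, and after the shift -1.33, -1.49, -1.55 and -1.67. Means of at least 2 in size were found in 11 members. Among them, EPHA5, ADK and RIPK2 were higher, and PPP1R1C, NUDT14, NT5C1B, PIK3CD, EPHB1 and PFKM (AB061205) lower. All 11 had values of over 1 in size, with the same sign, on every array.

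The arrays did not scatter evenly around the means. Between arrays, the correlation across the 52 members was 0.993 for arrays 1 and 3, 0.990 for arrays 2 and 4, and 0.973 to 0.979 for the other array pairs, and these values rest largely on the wide range of member means. Over all gene probes the same figures were 0.929, 0.893 and 0.813 to 0.861. These are descriptions across genes of shared hybridizations, and genes are not independent replicates. Arrays 2 and 4 were the highest 2 arrays in 29 of the 52 members (55.8%) and in 44.5% of all gene probes, while array levels differ as given above. After the shift this order was found in 11 members (21.2%, against 25.1% of all gene probes), and arrays 1 and 2 were the highest in 21 (40.4%, against 20.1%). Of the 8 members with an SD above 0.4, which were RIPK2, PPP1R1C, C9orf95, G6PC2, VRK1, PHKB, FBP1 and CAMK2A, 6 had arrays 2 and 4 as the highest on either scale. PPP1R1C had arrays 1 and 3, and CAMK2A arrays 3 and 4. The labels name no batch for the arrays, and the cause of this spread was not tested.

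**Figure D4:**
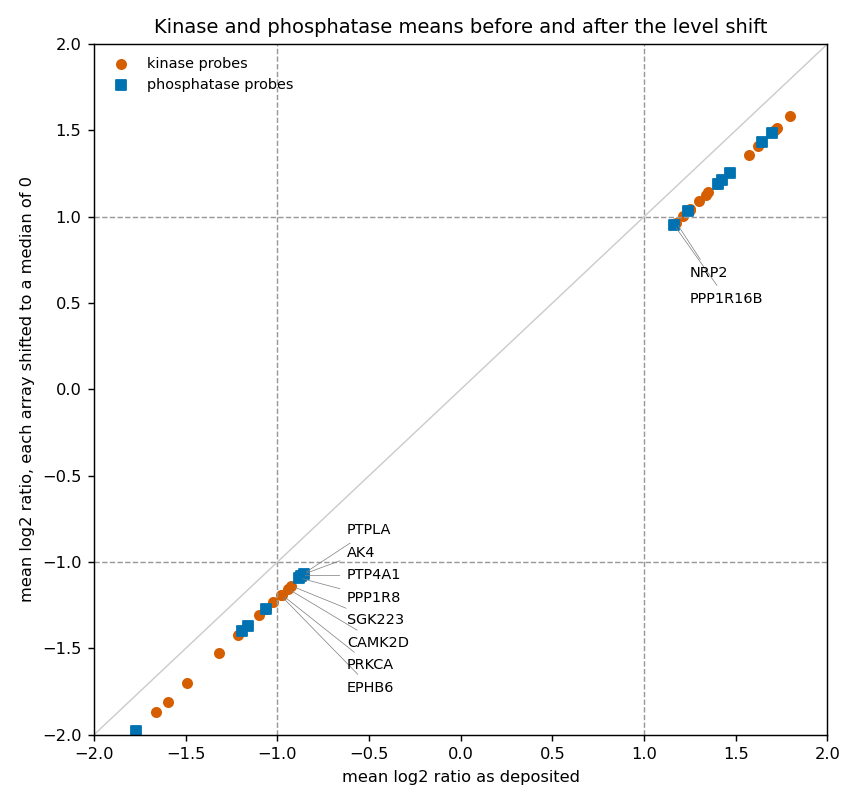
Mean log2 ratio as deposited (horizontal) against the mean once all arrays had a gene probe median of 0 (vertical), for kinase probes (orange circles) and phosphatase probes (blue squares) within 2 log2 units of 0; the 11 members with larger means are outside the plot. Every point lies 0.21 under the gray diagonal, and the 10 named probes lie on different sides of a dashed 2 fold limit on the horizontal and the vertical axis.

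Members close to the limits depended on this level. Called on both scales were 42 members, in the same direction. NRP2 (1.18 to 0.97) and PPP1R16B (1.16 to 0.95) were called higher only as deposited. Called lower only after the shift were AK4, CAMK2D (-0.94 to -1.15), EPHB6 (-0.98 to -1.19), PRKCA (-0.98 to -1.19), SGK223 (-0.93 to -1.14), PPP1R8, PTP4A1 and PTPLA, all 8 members that missed the call as deposited. Next to the limits as deposited, PPP1R16B at 1.16 was the lowest higher member, with no member between it and 1, and on the lower side C9orf95 at -1.02 stood inside and EPHB6 at -0.98 outside.

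By the cell location that the pathway list gives, both directions occurred everywhere. Of 33 cytoplasmic probes 16 were called higher and 13 lower, of 9 at the plasma membrane 5 and 3, of 6 in the nucleus 3 and 2, and of 4 with no known location 1 and 1. After the shift the plasma membrane probes were 3 higher and 4 lower. The other 842 probes of the pathway list, chosen in the same way, had 375 called higher and 379 lower, or 49.7% higher among the called, and 41.8% after the shift. The members' shares of 56.8% and 46.0% are set beside these with no test.

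Partners of the kinases and phosphatases were looked up in gene lists, of which only genes with a symbol in these data, mostly the study's own selection, could be counted. The list of 46 genes of nucleotide synthesis and salvage had 9 with a symbol, 7 called higher, 1 lower and 1 not called. Beside ADK, TK1 and PRPS2, the higher ones were TYMS, which makes thymidylate (2.18 ± 0.14), PPAT, the entry enzyme of purine synthesis (1.57 ± 0.34), ATIC, which completes the purine ring (1.38 ± 0.12), and UMPS, which makes UMP (1.31 ± 0.27). NT5C1B was the lower one and AK4 was not called. The list of PI3K, AKT and SGK signaling had 4 of 23 genes, all lower. These were PIK3CD, SGK1, SGK3 and PIK3AP1, an adaptor that binds PI3K in B cells (-1.23 ± 0.22). Of 32 PP1 and PP2A genes 7 had a symbol, 3 higher, 2 lower and 2 not called. The other genes of these lists may have probes without a symbol, which were not counted.

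The remaining lists held few genes beyond the members. They do not count the genes that were not taken in, such as EPHA3 and PLK1, to which the pathway list also gives a symbol. Eph receptors and ephrins (4 of 20 genes), mitotic and checkpoint kinases (3 of 21), calcium and calmodulin signaling (5 of 26), MAP kinase signaling (2 of 31), protein tyrosine phosphatases (3 of 23) and glycolysis and gluconeogenesis (4 of 45) had no other gene with a symbol. The list of 25 genes of cofactors and acyl-CoA had 6, of which 3 were called higher, 2 lower and 1 not at all. Beyond the members these were LPL, which releases fatty acids from lipoproteins (-4.20 ± 0.24), ELOVL6, a fatty acid elongase (1.20 ± 0.48), and PTPLAD1 (HACD3), a relative of PTPLA and PTPLB (1.18 ± 0.22). After the shift ELOVL6 (0.99) and PTPLAD1 (0.97) were not called.

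Genes whose names hold the letters of kinase or phosphatase, but which the pathway list gives another type, were looked at beside the members. The match was by spelling, so it also took in PLAU (urokinase) and NTPCR (a nucleoside triphosphatase). Of these 12 genes 4 were called higher, 7 lower and 1 not at all. CDKN2B, which inhibits CDK4 and CDK6 in the G1 phase, had -7.46 ± 0.35, a larger difference than that of any member, and AKAP12, a scaffold for protein kinases A and C, had -4.70 ± 0.33. PKIA, an inhibitor of protein kinase A, had -3.18 ± 0.23, and PLAU, the protease urokinase, -1.45 ± 0.33. CDK2AP1, an inhibitor of CDK2, had -1.05 ± 0.39 and AKAP9, a scaffold of the Golgi and centrosome, -1.02 ± 0.54. PIK3AP1 is given above. Higher were PPME1, which demethylates PP2A (1.69 ± 0.17), NTPCR, a nucleoside triphosphatase (1.36 ± 0.24), PTPLAD1, and AURKAIP1, which binds aurora kinase A (1.14 ± 0.31). PPP1R3B, a glycogen-targeting subunit of PP1 like PPP1R3D, had -0.83 ± 0.25 and was not called, so these subunits had opposite signs. After the shift AURKAIP1 and PTPLAD1 were not called and PPP1R3B was called lower.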

How the data were processed

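The study compared RNA of primary CEF (Cy3) and DF-1 cells (Cy5) on 4 two-color Agilent arrays. Background correction and loess normalization of each array were done by the authors, who deposited, for every spot, the linear ratio of DF-1 to primary CEF with its SD over arrays, and a table of the same values as log2. The deposited ratio columns hold 0 missing values, and their log2 equaled the deposited log2 table to within 5.0e-05. The deposited mean and SD columns were not used for any value. The tables hold no intensities, so signal over background is unknown and no filter on dim probes was possible. The number of arrays limits the precision.

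Control spots were left out, and the deposited log2 ratios of 42034 gene probes were used with no centering. The mean over 4 arrays was fitted for each of these probes with limma 3.58.1 (R 4.3.3) and tested against 0, 2-sided. Calls followed the study's methods, with an unadjusted p under 0.05 and at least a 2 fold difference, which is a mean log2 ratio above 1 or below -1. The fit was also run on simulated data with independent errors. Those data lack the level differences between the arrays, so nothing about the calls is concluded from them. Python 3.11.15 with numpy 2.4.6, pandas 2.3.3 and matplotlib 3.10.9 served for tables and figures.

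Symbols came by accession from the study's pathway list and a RefSeq table (49 probes by the latter), for 943 probes and 925 genes. The members and gene lists were chosen with earlier results of these data known. Every member was to be named, and 3 of the 52 probes, which stay in all counts, medians and correlations, are not reported here by name. Values on each array were given at least for those with a mean of 2 or more in size, an SD above 0.4, several probes, or a place next to a limit, while genes outside the members were at most 4 per list, those with the largest differences, and the pathway list genes with kinase or phosphatase in their names. Alternatives were adjusted p, limma's treat test, other fold limits, the array shift, the median over arrays, and leaving out each array.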

Additional observations from a re-analysis of the deposited data

Results flagged for a closer look

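Each of the 52 probes was checked for an array far from the other 3, and chance alone marks about 1 in 20 such groups of 4. DUSP4 was the 1 probe marked: its log2 ratio on array 4 was 1.77, while arrays 1 to 3 had 1.29, 1.24 and 1.31. With 52 probes checked, 1 mark is no more than chance alone would give. The check used the deposited values, on which array 4 had the highest gene probe median (0.47), and the chance rate leaves such levels out. After the shift DUSP4 had 1.33, 1.04, 1.10 and 1.30.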

How the results depend on the processing

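With Benjamini-Hochberg adjusted p in limma, 25 kinase and phosphatase probes were called higher and 19 lower, and 2567 and 2539 of all gene probes. With the treat test against a 2 fold change the counts were 11 and 11 for the members and 879 and 1406 for all gene probes, and with a 3 fold limit 10 and 10, and 878 and 1470. With no fold limit 12421 gene probes were called higher and 5631 lower. Shifting each array to a median of 0 moved the kinase median to 0.97 and the phosphatase median to -1.08. Leaving out each array in turn gave 25 to 25 members higher and 18 to 20 lower, 2253 to 2997 gene probes higher and 2330 to 2881 lower, a kinase median of 1.07 to 1.24 and a phosphatase median of -0.89 to -0.81. Of the 44 called members, 41 stayed called without any 1 array, and 20 of the 52 were called in the same direction under every setting. No member mean changed sign. The shift lowered every member mean by 0.21, so the 19 of 52 that moved by over 1 SD were those with a smaller SD. This marks a narrow spread between arrays, not a less stable result. In the other settings 0 moved by over 1 SD. Leaving out an array or taking the median over arrays cannot give such a move, so nothing is concluded from that 0. The test against 0 already used the pairing within arrays, because each array holds both cell types. With 1 group of arrays, no further pairing was possible.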
